A study of Mus musculus and Homo sapiens with 8 samples.

Results

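The genes described here are 10 members of the interleukin-1 family and of the inflammasome that matures its cytokines. They were taken by symbol from the mouse count table, where each of the 10 was found once among 25668 rows. They comprise the ligands Il1a, Il1b, Il1f9 and Il18, the antagonist Il1rn, the receptor genes Il1r1, Il1rap and Il1r2, the sensor Nlrp3 and the protease Casp1. Their RNA was measured by sequencing in 3 libraries of osteoclasts and 3 libraries of macrophages, both grown from marrow of wild type C57BL/6 mice aged 6 weeks. The osteoclasts were cultured with 50 ng/ml M-CSF, on which macrophages and their precursors depend, plus 100 ng/ml RANKL, which directs those precursors to become osteoclasts. The macrophages were cultured with 50 ng/ml M-CSF and no RANKL; any difference in medium or culture time cannot be told apart from RANKL. The series asks in its title how glutamine of the bone stroma bears on resistance to PARP inhibitors, and these libraries set osteoclasts against macrophages. Whether the 3 libraries of a group stem from different mice or cultures is not in the labels; the p-values therefore reflect library-to-library spread, which may be technical.

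Interleukin-1 alpha and interleukin-1 beta signal through the receptor Il1r1 together with the accessory chain Il1rap, and from there through Myd88 and the Irak kinases to NF-kB. Il1rn encodes the receptor antagonist, which occupies the receptor without signalling, and Il1r2 encodes a decoy receptor that binds ligand but lacks the signalling domain. Interleukin-1 beta and interleukin-18 are made as precursors, and the inflammasome, built from a sensor such as Nlrp3, the adaptor Pycard and the protease Casp1, cuts both of them. Interleukin-1 is long known to stimulate bone resorption by osteoclasts. Transcript counts show neither the cutting nor the release of these proteins.

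The 4 ligand and antagonist genes that differed most all lie on chromosome 2, Il1f9 and Il1rn in one block and Il1a and Il1b in another. Their promoters are shown because these genes were all higher in osteoclasts, so the choice rests on the same data. Each stretch runs from 250 bases before the RefSeq start site through the first 30 transcribed bases (RefSeq, GRCm38.p6, the assembly called mm10), 5′ to 3′ on the strand of the gene, and capitals mark the motif matches named after them.
Il1a (chr2:129309943-129310222, minus strand): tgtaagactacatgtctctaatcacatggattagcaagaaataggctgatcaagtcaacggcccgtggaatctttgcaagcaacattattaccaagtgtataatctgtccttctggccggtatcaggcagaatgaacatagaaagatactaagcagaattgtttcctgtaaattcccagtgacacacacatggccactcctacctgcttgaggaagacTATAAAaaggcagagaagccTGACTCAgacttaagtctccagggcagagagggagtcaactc
Il1b (chr2:129371110-129371389, minus strand): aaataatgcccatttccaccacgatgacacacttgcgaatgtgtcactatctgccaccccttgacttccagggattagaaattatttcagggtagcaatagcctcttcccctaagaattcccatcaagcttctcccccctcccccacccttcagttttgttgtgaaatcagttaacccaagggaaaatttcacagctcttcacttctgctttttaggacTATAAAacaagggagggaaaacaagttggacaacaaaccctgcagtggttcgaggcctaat
Il1f9 (chr2:24186226-24186505, plus strand): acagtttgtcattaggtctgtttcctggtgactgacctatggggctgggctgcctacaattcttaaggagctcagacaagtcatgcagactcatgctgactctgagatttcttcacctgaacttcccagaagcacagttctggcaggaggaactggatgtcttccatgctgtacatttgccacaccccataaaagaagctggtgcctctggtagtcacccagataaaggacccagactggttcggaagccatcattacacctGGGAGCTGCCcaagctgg
Il1rn, most upstream start (chr2:24336610-24336889, plus strand): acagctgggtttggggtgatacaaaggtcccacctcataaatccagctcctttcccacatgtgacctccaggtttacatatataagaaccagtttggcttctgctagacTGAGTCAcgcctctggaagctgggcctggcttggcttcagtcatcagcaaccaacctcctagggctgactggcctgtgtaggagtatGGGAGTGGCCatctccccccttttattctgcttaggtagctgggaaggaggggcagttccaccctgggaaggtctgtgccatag

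Motifs were searched on both strands in the RefSeq windows of 250 bases before and 50 after each start. With the start base counted as 0, Il1a held the TATA box letters TATAAA at -32 to -27 and Il1b held them at -31 to -26. An AP-1 motif (TGANTCA) lay at -12 to -6 in Il1a and at -141 to -135 before the most upstream start of Il1rn. A kappaB motif (GGGA, any 4 bases, CC) lay at -54 to -45 before that start of Il1rn and at 12 to 21 after the start of Il1f9. It also lay at -119 to -110 in Il1rap, the 1 member called lower, and at -186 to -177 in Nlrp3. The window of Il1b held no kappaB or AP-1 match. No match overlapped another. All 10 genes had windows in the RefSeq table, 14 in all, since Il1rn has 3 start sites there and Il1r1 and Nlrp3 more than 1. Of the 14 windows, 4 held the kappaB motif, 2 the AP-1 motif, 1 the C/EBP motif (TTGCNNAA) and 4 the TATA box letters. The TATA box letters of Il18 (-175 to -170) and of start site 3 of Il1rn (14 to 19) were on the strand opposite to the gene. Of all 32851 RefSeq windows, 20.7% held the kappaB motif, 7.81% the AP-1 motif, 10.8% the C/EBP motif and 13.6% the TATA box letters. None of these motifs is therefore particular to the 10 genes. A match describes letters and shows no binding.

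The libraries held 18161451 to 22587509 counts in osteoclasts and 16743849 to 21386319 in macrophages, so that 3 counts, taken as the floor, correspond to 0.144 to 0.178 and 0.130 to 0.166 CPM (counts relative to library size after TMM scaling, which keeps the typical gene level between libraries). All 10 osteoclast markers rose, among them Acp5 and Ctsk, against 32.3% of all tested genes. Their summed level was 11770 to 12330 CPM in osteoclasts and 56.5 to 60.7 CPM in macrophages. Calcr, Car2, Oscar and Ocstamp lay below the level of the filter on low counts (0.511 CPM) in all 3 macrophage libraries. They were tested through their osteoclast libraries alone and could only come out higher. Macrophage markers were abundant in both groups, at a sum of 8718 to 9136 CPM in osteoclasts and 7199 to 7361 CPM in macrophages, but moved both ways: of 8, Adgre1, Itgam and Cd14 rose and 5 fell (median log2 -0.29), Mrc1 by 1.32 on the log2 scale. Of 9 neutrophil genes in the table, S100a8 and Mmp8 rose and Csf3r fell. S100a8 too lay below the filter's level in all 3 macrophage libraries and could only come out higher. The summed level was 153 to 158 CPM in osteoclasts and 27.4 to 29.7 CPM in macrophages. Most of it was Mmp8 in osteoclasts (mean 113.5 CPM) and Csf3r in macrophages (mean 27.3 CPM). Elane, Mpo, Prtn3, S100a9 and Cxcr2 had at most 1 count in any library. The remaining neutrophil gene, Camp, had 10, 12 and 4 counts in osteoclasts and 0, 0 and 3 in macrophages, a ratio of 9.86 (95% exact counting interval 3.02 to 50.9). Stromal and osteoblast-lineage genes summed to 16.6 to 26.5 CPM in osteoclasts, and to 198, 5.50 and 2.49 CPM in macrophage libraries 1, 2 and 3. The 3 tested moved both ways. Dcn rose (log2 5.71), with 162, 172 and 246 reads in osteoclasts and 12, 0 and 0 in macrophages. Col1a1 and Col1a2 fell (log2 -2.95 and -2.96), with macrophage library 1 far above the other macrophage libraries. Osteoclast library 2 stood apart from the other osteoclast libraries, with 1.07% of counts on genes annotated as ribosomal RNA (0.0129 to 0.0686% in the other 5 libraries). Malat1 had 4158 CPM in it, against 1105 to 1464 CPM in the other 5 libraries. Over genes with at least 20 reads, chi-square per degree of freedom was 32.5 and 36.4 between it and osteoclast libraries 1 and 3. Between osteoclast libraries 1 and 3 it was 2.92. In whole-culture RNA, fewer cells of a type and less RNA per cell cannot be told apart.

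Osteoclasts carried far more transcript of the interleukin-1 agonists, of their antagonist and of their signalling receptor, and differed little from macrophages in Il18, Il1rap and Casp1. Of the 10 genes, 7 rose (Il1a, Il1b, Il1f9, Il1rn, Il1r1, Nlrp3 and Casp1), 1 fell (Il1rap), 1 did not pass the test (Il18) and 1 had too few counts to be tested (Il1r2). For Casp1 that direction depends on the scaling, as given with its values. Among all 13247 genes tested, 63.7% passed at an adjusted p below 0.05, 32.3% higher and 31.4% lower in osteoclasts, so a call alone is common here. A call with a rise of at least 1 log2 was made for 9.35% of all tested genes, and for 5 of the 10 (Il1a, Il1b, Il1f9, Il1rn and Il1r1). A call with a rise of at least 4 log2 was made for 1.76%, Il1a, Il1b and Il1f9 among them. The 10 genes were chosen with earlier results of these data known, so setting them beside these shares is no test of the set. Il1a and Il1f9 passed the filter on low counts through their osteoclast libraries alone, so they could only come out higher. For Il1r1 and Il1b this held in part, with 1 and 2 of 3 macrophage libraries at the filter's level of 0.511 CPM. That level is taken on library totals before TMM scaling. Levels in the 2 groups did not overlap for 8 of the 10 genes, against 68.1% of all tested genes. For Il1a and Il1f9 the filter fixed that separation in advance. Il1r2 is counted among the 10 but not among the tested genes.

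**Figure D1:**
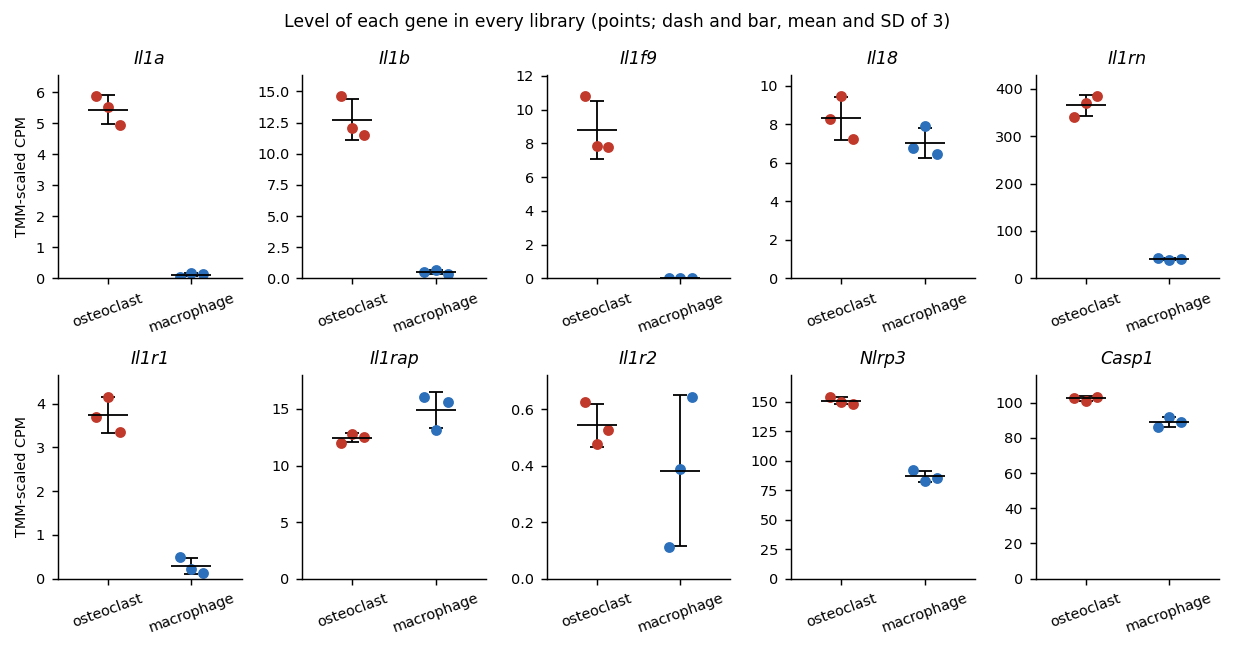
TMM-scaled CPM of each of the 10 genes (vertical axis, linear from 0) in 3 osteoclast libraries (red, left) and 3 macrophage libraries (blue, right); dashes and bars are the mean and SD. Il1a, Il1b, Il1f9, Il1rn and Il1r1 stand far above the macrophage libraries, while the groups overlap for Il18 and Il1r2.

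Il1b encodes the cytokine that the inflammasome matures. It had 14.6, 12.1 and 11.5 CPM in osteoclast libraries 1 to 3, against 0.498, 0.650 and 0.3225 CPM in macrophage libraries 1 to 3. Every osteoclast library lay above every macrophage library, which held only 9, 15 and 7 reads. The fold was 25.5 (log2 4.67, SE 0.20, edgeR adjusted p = 2.51e-10).

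Il1a encodes the sister cytokine, which is active without cutting by Casp1. It had 5.87, 5.53 and 4.93 CPM in osteoclasts, against 0.0553, 0.173 and 0.138 CPM in macrophages, where the reads numbered 1, 4 and 3. The groups were far apart, and the fold of 40.9 (log2 5.35, SE 0.30, edgeR adjusted p = 3.63e-09) rests on those 8 macrophage reads. Both genes carry an annotated RNA on the opposite strand that overlaps an exon, Gm14023 over Il1a and Il1bos over Il1b. The sources used here do not state whether counting used strand; Gm14023 had 2 to 6 reads in osteoclasts and 2 to 4 in macrophages, and Il1bos had 0 to 2 and 0.

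Il1f9 encodes interleukin-36 gamma, an agonist of the interleukin-36 receptor. It had 189, 132 and 162 reads in osteoclasts (10.8, 7.85 and 7.76 CPM) and 0 in all 3 macrophage libraries. Osteoclasts were at least 183-fold higher, measured against a floor of 3 reads over the macrophage group (edgeR adjusted p = 4.76e-09). The next coding genes after Il1f9 on chromosome 2 that are in the count table are further interleukin-36 genes. Il1f6 had 15, 6 and 3 reads in osteoclasts and 0 in macrophages, at least 9.11-fold higher. Il1f5, an antagonist, had 1 read in osteoclasts and 0 in macrophages. Both were under the filter on low counts.

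Il1rn encodes the receptor antagonist. It had 340, 370.3 and 384 CPM in osteoclasts, against 42.6, 39.1 and 40.5 CPM in macrophages. The osteoclast libraries lay close together and about an order of magnitude above the macrophage ones. The fold was 8.96 (log2 3.16, SE 0.05, edgeR adjusted p = 1.65e-14). Counts are per gene, so the start sites of Il1rn, and with them its secreted and intracellular forms, were not separated.

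Il18 encodes the other cytokine that Casp1 cuts. It had 8.27, 9.45 and 7.23 CPM in osteoclasts and 6.75, 7.93 and 6.45 CPM in macrophages. These ranges overlap, and the log2 fold change of 0.23 (SE 0.13) did not pass (edgeR adjusted p = 0.136), which leaves a small difference undetermined. Il18bp, whose secreted product binds and blocks interleukin-18, did rise: it had 10.1, 10.2 and 9.24 CPM in osteoclasts, against 4.92, 4.64 and 5.11 CPM in macrophages (log2 1.01, SE 0.11, edgeR adjusted p = 3.26e-06). Exons of Numa1 overlap Il18bp on the opposite strand; Numa1 had 2868 to 3220 reads in osteoclasts and 5035 to 6582 in macrophages. Il33, another family cytokine, had 3 reads in 1 osteoclast library and 0 in the other 5 libraries.

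Among the receptors, Il1r1, the signalling receptor of interleukin-1, had 3.71, 4.16 and 3.35 CPM in osteoclasts, against 0.498, 0.217 and 0.138 CPM in macrophages. The highest macrophage value came from library 1, which also had the highest summed level of stromal genes. What part stromal transcripts had in that value was not tested. The fold was 13.4 (log2 3.74, SE 0.34, edgeR adjusted p = 4.91e-07), and without macrophage library 1 the log2 change was 4.34 (edgeR adjusted p = 1.07e-07).

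Il1rap, the accessory chain that Il1r1 and the interleukin-36 receptor share, had 12.0, 12.8 and 12.6 CPM in osteoclasts, against 16.1, 13.1 and 15.6 CPM in macrophages. The highest osteoclast and the lowest macrophage library almost met. Il1rap fell by 0.26 on the log2 scale (SE 0.09, edgeR adjusted p = 0.0259). That call was lost with DESeq2 (adjusted p = 0.0636) and in edgeR without osteoclast library 1 (-0.24, adjusted p = 0.0766), macrophage library 1 (-0.20, adjusted p = 0.102) or macrophage library 3 (-0.22, adjusted p = 0.0999).

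Il1r2, the decoy receptor, was near the limit of detection in both groups, with 11, 8 and 11 reads in osteoclasts and 2, 9 and 14 in macrophages. In CPM these are 0.627, 0.4755 and 0.527 in osteoclasts and 0.111, 0.390 and 0.645 in macrophages, and the groups overlap. An exact two-sided permutation test over the 6 libraries gave p = 0.5 for Il1r2, where 0.1 is the smallest p that 3 against 3 libraries allow, so this test could not have passed 0.05. Fitted without the count filter, Il1r2 had a log2 change of 0.46 with an SE of 0.52 (edgeR adjusted p = 0.549), an estimate smaller than its own error.

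**Figure D2:**
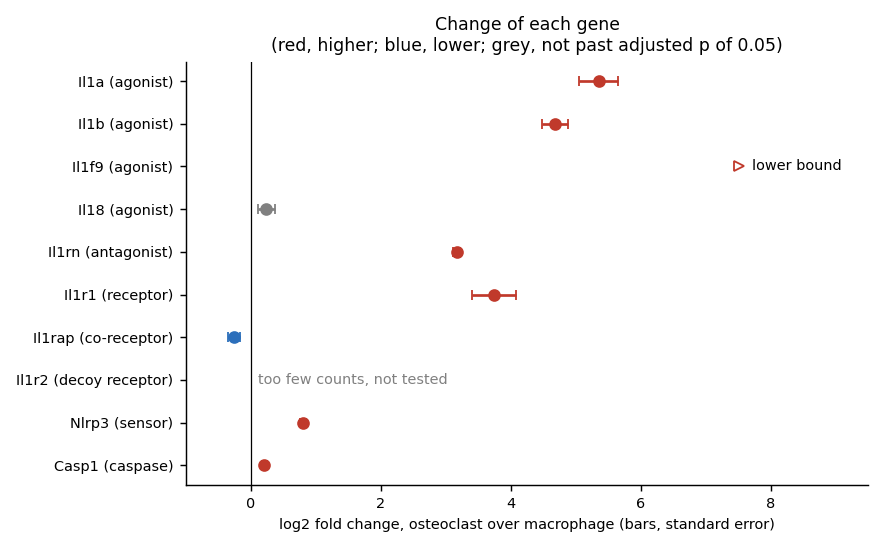
Log2 fold change of osteoclasts over macrophages (horizontal axis, bars show the standard error) for each of the 10 genes, ordered by role. Il1f9 is drawn at its lower bound of 183-fold, Il1r2 was not tested, and the small change of Casp1 (0.20) turns to -0.02 when libraries are scaled by their totals only.

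In the inflammasome, Nlrp3, the sensor, had 154.5, 150.3 and 148.4 CPM in osteoclasts, against 91.9, 83.2 and 85.5 CPM in macrophages. The groups are well apart but both express the gene at a substantial level. The fold was 1.74 (log2 0.80, SE 0.04, edgeR adjusted p = 2.13e-09).

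Casp1, the protease, had 103, 101 and 103.5 CPM in osteoclasts, against 86.3, 91.9 and 89.0 CPM in macrophages. It rose by 0.20 log2 (SE 0.04, edgeR adjusted p = 0.000614), a change that turned to -0.02 when libraries were scaled by their totals only (edgeR adjusted p = 0.747) and to 0.01 on the deposited scale, with all library sizes set equal (edgeR adjusted p = 0.958). Those scalings shift the median of all genes by -0.22 and -0.19 log2, which is about the size of the change of Casp1. Pycard, the adaptor between sensor and protease, had 36.7, 36.9 and 42.2 CPM in osteoclasts and 36.7, 36.0 and 37.6 CPM in macrophages (log2 0.07, SE 0.07, edgeR adjusted p = 0.36). Casp4, next to Casp1 on chromosome 9, encodes the protease that senses intracellular lipopolysaccharide; its change of 0.21 log2 (edgeR adjusted p = 0.00769) turned to -0.0052 with library totals only.

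Because transcripts differ in length, levels of different genes were compared as CPM per kilobase of annotated exon. In osteoclasts Casp1 (68.5 ± 0.884, SD, n = 3) and Il1rn (65.9 ± 4.07) stood highest and overlapped. Nlrp3 followed at 37.2 ± 0.769, then Il18 at 8.07 ± 1.08, Il1b at 6.68 ± 0.858 and Il1f9 at 5.34 ± 1.04 CPM per kilobase. Among these last 3, Il18 overlapped Il1b and Il1b overlapped Il1f9. Il1a (2.76 ± 0.241), Il1rap (1.10 ± 0.0338), Il1r1 (0.588 ± 0.0637) and Il1r2 (0.285 ± 0.0404) came next, each clear of its neighbour. In macrophages the order was Casp1 (59.5 ± 1.87), Nlrp3 (21.4 ± 1.10), Il1rn (7.36 ± 0.323), Il18 (6.83 ± 0.760) and Il1rap (1.32 ± 0.140 CPM per kilobase), of which Il1rn and Il18 overlapped. The rest averaged at most 0.257 CPM per kilobase, with overlaps between all neighbours from Il1b through Il1r2 and Il1a to Il1r1, and Il1f9 had no reads. The exon length joins all annotated transcripts of a gene, which lowers the level of genes with several forms such as Il1rn and Il1rap.

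Ratios within a library do not depend on scaling and show how the balance of paired genes differed. The antagonist Il1rn outnumbered Il1a plus Il1b by 16.6, 21.0 and 23.3 reads to 1 in osteoclasts, against 77.1, 47.5 and 88.0 to 1 in macrophages. Per kilobase the same ratios were 5.78, 7.33 and 8.11 in osteoclasts and 26.7, 16.5 and 30.6 in macrophages. The antagonist exceeded the agonists in all 6 libraries, and by a smaller factor in every osteoclast library, a difference of -1.71 in the log2 ratio.

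The ratio of Il1r2 to Il1r1 was 0.169, 0.114 and 0.157 in osteoclasts, against 0.222, 1.80 and 4.67 in macrophages, a log2 difference of -3.03. The macrophage ratios rest on 2 to 14 reads of each gene, and the difference was -4.15 without macrophage library 1 and -2.16 without macrophage library 3. Il18bp to Il18 was 1.23, 1.08 and 1.28 in osteoclasts, against 0.730, 0.585 and 0.793 in macrophages (log2 difference 0.77). Casp1 to Nlrp3 was 0.667, 0.672 and 0.697 in osteoclasts, against 0.939, 1.10 and 1.04 in macrophages (log2 difference -0.60). The groups did not overlap for any of these 4 ratios. Each gave p = 0.1 in an exact two-sided permutation test over libraries, the smallest that 3 against 3 allow, so none can pass 0.05 in this design (adjusted over the 4 ratios, p = 0.1 each).

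**Figure D3:**
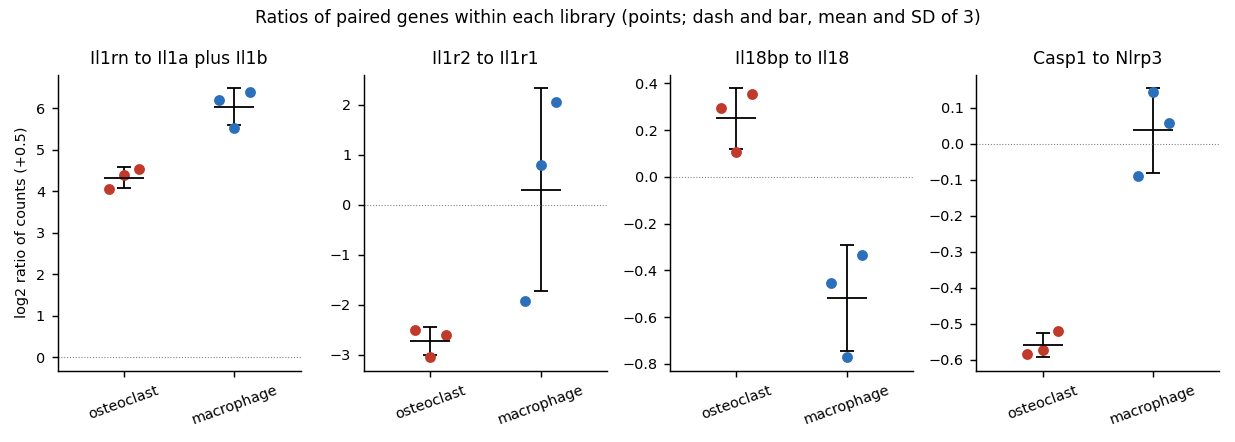
Log2 ratio of counts, with 0.5 added to each count, for 4 pairs of genes in 3 osteoclast libraries (red, left) and 3 macrophage libraries (blue, right); dashes and bars are the mean and SD. The groups do not overlap in any panel, and the macrophage values of Il1r2 to Il1r1 spread widest.

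The receptor genes of the family lie side by side on chromosome 1 (mm10), all on the plus strand: Il1r2 (40074079 to 40125231), Il1r1 (40225080 to 40317257), Il1rl2 (40324610 to 40367562), Il1rl1 (40429570 to 40465415), Il18r1 (40465552 to 40500854) and Il18rap (40515362 to 40551705). Neighbours in this block differed in opposite directions. Il1rl2, which encodes the receptor of interleukin-36 and lies next to Il1r1, had 11.7, 10.3 and 10.3 CPM in osteoclasts, against 0.498, 1.17 and 0.507 CPM in macrophages (log2 3.84, SE 0.23, edgeR adjusted p = 7.12e-09). The agonist Il1f9 and this receptor were both higher in osteoclasts.

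Il1rl1, which encodes the receptor of interleukin-33, had 2.51, 2.85 and 3.45 CPM in osteoclasts, against 5.64, 4.38 and 4.24 CPM in macrophages (log2 -0.68, SE 0.18, edgeR adjusted p = 0.00541). Il18rap, the accessory chain of the interleukin-18 receptor, had 5.53, 4.22 and 5.89 CPM in osteoclasts, against 8.07, 8.97 and 6.73 CPM in macrophages (log2 -0.60, SE 0.15, edgeR adjusted p = 0.00376). Il18r1, the ligand-binding chain of that receptor, had 0 reads in osteoclasts and 2, 1 and 0 in macrophages. Sigirr, an inhibitory receptor encoded elsewhere, had 1.54, 1.13 and 2.25 CPM in osteoclasts and 1.99, 3.12 and 3.32 CPM in macrophages. Its groups overlap, and its log2 change of -0.77 (SE 0.28, edgeR adjusted p = 0.0277) lost its call when osteoclast library 1 or 2 or macrophage library 2 or 3 was left out (edgeR adjusted p = 0.0927 to 0.119). Of the 7 receptor genes beyond the 10, 4 were tested. Of these, 1 rose and 3 fell, against 32.3% higher and 31.4% lower among all tested genes.

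**Figure D4:**
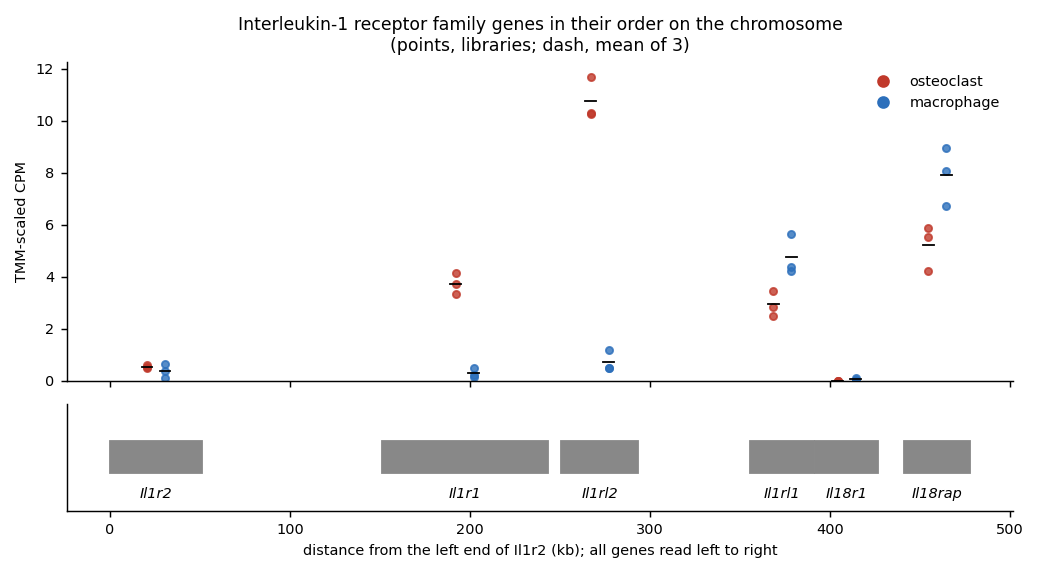
TMM-scaled CPM of 6 receptor genes of the family (upper panel) in osteoclast (red) and macrophage (blue) libraries, placed by their distance in kilobases along chromosome 1 (lower panel); dashes are means of 3. Il1r1 and Il1rl2 are higher in osteoclasts, and the neighbouring Il1rl1 and Il18rap are lower.

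The wider inflammasome list showed no common direction. Of its 29 genes beyond Nlrp3 and Casp1, 25 were tested. Of these, 12 rose, 10 fell and 3 missed the threshold, against 32.3% higher and 31.4% lower among all tested genes. The median log2 change was 0.11, against -0.0040 for all tested genes. On the deposited scale 6 rose and 8 fell. Mefv, which encodes the pyrin sensor, had 58.5, 61.5 and 58.5 CPM in osteoclasts, against 0.442, 0.260 and 0.461 CPM in macrophages, the largest change on the list (log2 7.26, SE 0.12, edgeR adjusted p = 1.65e-14). Mefv lay below the filter's level of 0.511 CPM in all 3 macrophage libraries. It was therefore tested through its osteoclast libraries alone and could only come out higher. Gsdmd, the pore protein that Casp1 cuts, had 187, 183 and 193 CPM in osteoclasts, against 67.5, 68.1 and 74.5 CPM in macrophages (log2 1.42, edgeR adjusted p = 7.88e-12).

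Ninj1, which ruptures the membrane of dying cells, rose by 2.01 log2, and the channel gene Panx1 by 1.88. Naip1, of the family that detects bacterial proteins for Nlrc4, rose by 4.21 log2. Naip1 too lay below the filter's level in all 3 macrophage libraries and was tested through its osteoclast libraries alone. On the lower side, the sensor gene Nlrp1b had 20.1, 23.0 and 21.0 CPM in osteoclasts, against 72.4, 70.6 and 68.5 CPM in macrophages (log2 -1.72, edgeR adjusted p = 6.27e-11). The pseudogene Nlrp1c-ps fell by 1.91 and Nlrp10 by 1.54. Nek7, the kinase that binds Nlrp3 during its activation, averaged 90.7 ± 2.40 CPM in osteoclasts and 161 ± 5.27 CPM in macrophages (SD, n = 3 each; log2 -0.83, edgeR adjusted p = 5.75e-10), opposite to Nlrp3 itself. Gsdme, another pore protein, fell by 0.56. The Nlrp1 and Naip genes are near copies of each other, so reads may be split between them and their values are uncertain.

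Downstream of the receptor, the 20 genes from Myd88 to NF-kB were all tested. Of these, 8 rose, 6 fell and 6 missed the threshold, against 32.3% higher and 31.4% lower among all tested genes. The median of the 20 was -0.0075 log2, close to that of all genes. The split depends on scaling: 4 rose and 12 fell with library totals only, and 3 rose and 4 fell on the deposited scale. Irak3, the inhibitory member of the Irak family, stood apart from them, with 259, 264 and 267 CPM in osteoclasts, against 30.3, 28.5 and 27.4 CPM in macrophages (log2 3.20, SE 0.04, edgeR adjusted p = 4.89e-15). The kinases Irak4 and Irak1 fell by 0.40 and 0.24 and the kinase Map3k7 by 0.29. The scaffold gene Sqstm1 rose by 1.39 and Ikbkg, the regulatory subunit of the IkB kinase, by 0.66. Myd88, the adaptor itself, changed by 0.22 (edgeR adjusted p = 0.00125), which turned to -0.0011 with library totals only.

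Genes that interleukin-1 is known to induce in other cells were higher almost throughout. Of 24 listed, 23 were in the table and 21 were tested. Of these, 20 rose, 0 fell and 1, Nfkb1, missed the threshold, against 32.3% higher and 31.4% lower among all tested genes. The list was chosen with earlier results of these data known. The median of the 21 tested was 2.00 log2. With library totals only, 20 rose and 1 fell. Cxcl3, Lcn2 and Csf3 lay below the filter's level of 0.511 CPM in all 3 macrophage libraries. These 3 were tested through their osteoclast libraries alone, so they could only come out higher. Saa3, an acute-phase protein, averaged 274 ± 19.8 CPM in osteoclasts and 0.666 ± 0.275 CPM in macrophages, Cxcl3, a neutrophil chemokine, 68.2 ± 7.88 and 0.157 ± 0.0643 CPM, and Ptges, a prostaglandin E synthase, 266 ± 18.4 and 2.45 ± 0.386 CPM (SD, n = 3 each). Lcn2, an iron-sequestering protein, had 2867 reads in osteoclasts and 2 in macrophages, a ratio of 1630 (95% exact counting interval 451 to 13500). Csf3, the granulocyte growth factor, had 127 and 1, a ratio of 145 (25.5 to 5750). The 1 macrophage read of Csf3 lay in library 2, and without that library the fitted log2 change was 8.45 instead of 6.69; fitted values against so few reads depend on the prior count and are no bound. Intervals and floors cover counting error only. RANKL and other signals to NF-kB raise many of the same genes, and whether interleukin-1 acted in these cultures was not tested.

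**Figure D5:**
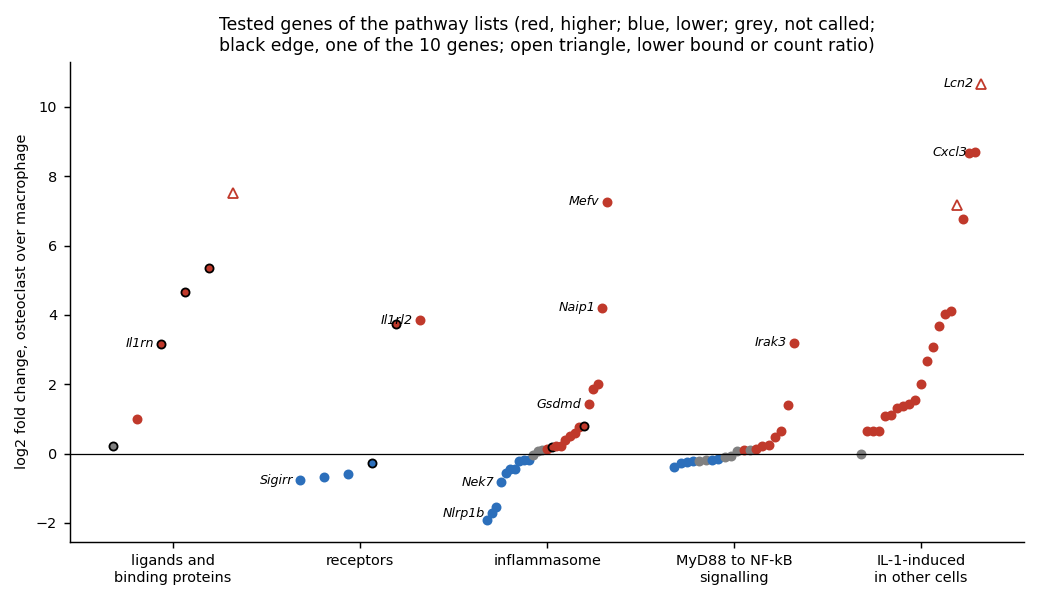
Log2 fold change of osteoclasts over macrophages for each tested gene of the 5 pathway lists, sorted within a list; red marks higher, blue lower and grey not past the test on TMM scaling, black edges the 10 genes, and open triangles genes with at most 2 macrophage reads, drawn at a lower bound or count ratio. Irak3 (3.20) stands apart in the signalling list and Mefv (7.26) in the inflammasome list, while small changes near 0 depend on the scaling (Casp1, Casp4 and Myd88 turn to -0.02, -0.0052 and -0.0011 with library totals only).

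The genes with the profile most like each of 5 members were sought over the 6 libraries, as the smallest Euclidean distance between log2(CPM + 1) values centred on the gene's mean. For Il1rn these were Irak3 (distance 0.125), Sod2 (0.171) and Ppfibp2 (0.186). For Il1b they were Cd55 (0.243), Jdp2 (0.267) and Il1f9 (0.270). Il1a was closest to Slco3a1 (0.192), Msln (0.212) and AC154707.1 (0.218), and Il1r1 to Egfr (0.108), Ryk (0.118) and Fosl2 (0.146). Nlrp3 was closest to Zbtb18 (0.0531), Kpna4 (0.0636) and Micall2 (0.0639). With 2 groups of 3 libraries, likeness means mainly a difference of similar size on this scale.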

How the data were processed

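RNA sequencing counts of 3 osteoclast and 3 macrophage libraries were used; groups follow the sample sources in the labels. The deposited mouse table holds counts per gene symbol. The table is named as normalized, but its values are whole numbers with unequal totals and no gaps at low counts, so the deposited values were analysed as counts. The submitters' processing notes name the aligner STAR (2.6.0c), the counter featureCounts (1.6.2) and, as genome builds, hg19 and mm10, in no stated order; no source used here gives the strand setting. No column was left unmapped. The human table was not used here.

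Genes were tested with edgeR 4.0.16 in R 4.3.3 by its two-sided quasi-likelihood test after filterByExpr and TMM, in a model of group alone. P-values of all 13247 genes were adjusted by Benjamini-Hochberg and 0.05 was the threshold. The F statistic and the fold change together gave each standard error. The script was tested on simulated data. Alternatives used DESeq2 1.42.0, limma 3.58.1 on log2(CPM + 1) and log2(CPM + 5), other scalings, no filter, a replicate block and leaving out libraries. Coordinates and exon lengths are from GENCODE M21. The members, lists and tests were chosen with earlier results of these data known. All 10 members are named, and from each list up to 5 genes called higher and 5 called lower, by size, of which examples are given, plus partners of members; Numa1, Il1f5, Il1f6, Il18r1, Nfkb1 and the overlapping RNAs were added after their values were seen, as were the promoter motifs.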

Additional observations from a re-analysis of the deposited data

How the results depend on the processing

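Counts over all genes depended most on scaling. With TMM, 4281 genes rose and 4162 fell, so that 50.7% of calls were higher; with library totals only 2625 rose and 6445 fell (28.9% higher), and on the deposited scale 1800 rose (32.2% higher). Among the 10 genes, 7 rose under every setting run except library totals only and the deposited scale, where 6 rose because Casp1 was lost. The 1 that fell, Il1rap, was lost with DESeq2 (0 lower) and without macrophage library 1 and osteoclast library 2 together (0 lower; this setting was added after seeing the data), and the count ranged from 0 to 1 when single libraries were left out. Beyond the 10 genes, the ligand list had 2 higher without a count filter instead of 1. The inflammasome list had 6 higher on the deposited scale; the signalling list had 4 higher and 12 lower with library totals only and 3 higher on the deposited scale; the list of genes induced by interleukin-1 had 1 lower with library totals only. With library totals only, Casp1 turned to -0.0154, Myd88 to -0.0011 and Casp4 to -0.0052 log2; the shift of all genes in that scaling is -0.22. The log2 ratios within libraries kept their sign under every alternative run. With limma and a pseudocount of 5, folds of genes with few macrophage reads were smaller by construction (Il1a 1.03, Il1b 1.69 and Il1r1 0.73 log2), and still passed.

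Same-numbered libraries of the groups deviated together only weakly (r = 0.0511, 0.0632 and 0.139), so the numbers were not taken as pairs, although each library correlated best with its own number. With the replicate block, 4237 genes rose and 4114 fell, and the 10 genes kept the counts of 7 higher and 1 lower. The reads limit what can be said of Il1r2 and of the macrophage levels of Il1a, Il1f9 and Il1r1.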
